A study of Mus musculus with 17 samples.

Results

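The serotonin receptor genes Htr1a, Htr1b, Htr1f, Htr2a, Htr2c, Htr3a, Htr4, Htr5a, Htr5b and Htr7 were examined in RNA from the prefrontal cortex of mice aged 8 months. These 10 genes were chosen as members of one gene family, with no threshold on their values but with earlier results of these data known. All 10 were among the 23062 of 56953 listed genes that passed the filter on low counts. The list leaves out 4 further genes of the family, Htr1d, Htr2b, Htr3b and Htr6, which are described apart. Shares of the 10 below are therefore shares of the listed genes and not of the whole family. There were 5 libraries of WT, 6 of PS19 (labelled hTau) and 6 of CgA-KO/PS19 (labelled CgA-KO/hTau), in a B6C3F1/J background. PS19 mice carry a mutant human Tau transgene driven by the mouse Prnp promoter, which is active in neurons, so that the transgene is shared by both PS19 groups and absent from WT. CgA-KO/PS19 mice also lack Chga, the gene of chromogranin A (CgA), a protein of secretory granules. Chga was at 163 ± 11.9 CPM (counts relative to the TMM-normalized library size; mean ± SD, n = 5) in WT, 168 ± 6.68 CPM (n = 6) in PS19 and 0 CPM in all 6 libraries of CgA-KO/PS19. The study asks how Tau pathology and loss of CgA change the cortex; no CgA-KO mice without the transgene were measured here, so the loss of Chga is compared on the transgenic background alone.

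Serotonin is made by neurons of the raphe nuclei in the brainstem, whose axons reach the whole cortex, so the cortex holds the receptors but few of the cells that make the transmitter. Most receptors act through G proteins: the Htr1 and Htr5 families lower cyclic AMP through Gi, the Htr2 family activates phospholipase C through Gq, and Htr4 and Htr7 raise cyclic AMP through Gs. Htr3a is the exception, the subunit of a fast cation channel. In the forebrain Htr2a is known from pyramidal neurons, Htr3a from interneurons born in the caudal ganglionic eminence, Htr1b and Htr4 from the striatum among other places, and Htr2c from the choroid plexus and the striatum.

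The libraries differed in more than genotype. Totals ran from 8838334 counts (WT replicate 4) to 227651681, and about 3 deposited counts stood for 1 sequenced fragment. The cortical marker Slc17a7 and the other 6 markers of cortical excitatory neurons were present in each library, with a summed level of 2486 to 5408 CPM. Markers of the striatum, which lies under the cortex, were present too: the 20 genes summed to 1427 to 4737 CPM in WT, 441 to 513 CPM in PS19 and 373 to 3355 CPM in CgA-KO/PS19. Within CgA-KO/PS19 the sum was 3294 CPM in replicate 1, 798 CPM in replicate 2, 3355 CPM in replicate 3 and 373 to 453 CPM in replicates 4 to 6. Mitochondrial genes took 15.3%, 18.2%, 13.8%, 3.84%, 6.63% and 10.9% of counts in CgA-KO/PS19 replicates 1 to 6, against 2.56% to 4.59% in PS19, 7.94% in WT replicate 4 and 3.53% to 4.08% in the other WT libraries. PS19 replicates 4 to 6 were much closer to each other, as were replicates 1 and 3 of CgA-KO/PS19 (robust SD of the log2 ratio 0.0523 to 0.0980 over 3761 genes), than the other pairs of a genotype (0.146 to 0.592). They still differed by 1.95 to 2.73 times the counting error, and were kept as separate samples. The Y-linked gene Ddx3y ran from 49.8 to 76.8 CPM in the first 3 replicates of every genotype and did not exceed 0.0582 CPM in the later ones; with Ddx3y as a covariate, Htr5b lost its call in CgA-KO/PS19 against PS19 (FDR = 0.0519) and no other receptor gene changed its call. Nothing in the labels says whether each library came from a mouse of its own, so p-values measure the spread between these libraries.

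The sequence before the start site is shown for 3 of the receptor genes that were called: Htr1b and Htr2c, which were higher in WT than in PS19, and Htr1a, which was lower in CgA-KO/PS19. The windows run 5′ to 3′ on the gene's own strand and begin 250 bases before the RefSeq start (GRCm38.p6). Bases covered by any GENCODE M21 exon were left out and the longest remaining stretch was kept. The windows of Htr1b and Htr2c reach the start, and that of Htr1a stops 54 bases short of it. Windows were used for 7 of the 10 genes, and Htr4 was not among them. Capitals mark a match on either strand to the TATA box TATAAA, to the CAAT box as CCAAT, to the GC box as GGGCGG, to the cyclic AMP response element TGACGTCA or to the E-box CACGTG, and the matches did not overlap one another. In GENCODE M21 (GRCm38), Htr1b spans chr9:81628291-81633828, Htr2c spans chrX:146962513-147197277 and Htr1a spans chr13:105443639-105448122. The windows are chr9:81633833-81634082 on the minus strand for Htr1b, chrX:146962263-146962512 on the plus strand for Htr2c and chr13:105443443-105443638 on the plus strand for Htr1a.
Htr1b: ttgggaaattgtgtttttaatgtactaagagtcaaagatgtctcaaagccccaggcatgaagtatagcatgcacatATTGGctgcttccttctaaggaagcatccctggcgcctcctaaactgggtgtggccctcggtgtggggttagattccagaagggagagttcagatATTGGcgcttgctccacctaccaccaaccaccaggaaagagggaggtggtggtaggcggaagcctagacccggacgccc
Htr2c: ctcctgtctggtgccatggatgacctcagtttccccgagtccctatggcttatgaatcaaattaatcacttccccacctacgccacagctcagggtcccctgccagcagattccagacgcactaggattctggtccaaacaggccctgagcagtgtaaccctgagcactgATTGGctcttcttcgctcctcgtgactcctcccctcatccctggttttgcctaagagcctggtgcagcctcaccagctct
Htr1a: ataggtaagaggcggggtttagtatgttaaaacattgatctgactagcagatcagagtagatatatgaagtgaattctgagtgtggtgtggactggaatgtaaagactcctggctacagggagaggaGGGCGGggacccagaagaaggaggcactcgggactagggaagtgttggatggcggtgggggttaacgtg
Htr1b held CCAAT on the opposite strand at 174 and 79 bases before the start, and Htr2c held it on the opposite strand at 80 bases before the start. A CCAAT match on either strand was found in 34.5% of all 27025 windows of 250 bases. The 196 bases of Htr1a, which begin 250 bases before the start, held GGGCGG at 123 bases before it, a match found in 23.8% of the same stretch of all promoters. These matches describe the letters and name no site in use.

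The level of each receptor was first set against the others per length, as CPM per kilobase of exon. In PS19 the order was Htr2a (8.86 ± 2.01, SD, n = 6), Htr5a (7.41 ± 0.739), Htr1a (5.65 ± 0.884), Htr3a (4.29 ± 0.4997), Htr1b (2.59 ± 0.147), Htr2c (2.34 ± 0.530), Htr7 (2.28 ± 0.319), Htr1f (1.33 ± 0.304), Htr5b (0.243 ± 0.117) and Htr4 (0.186 ± 0.0269). Of neighbours in this order, only Htr1a and Htr3a, Htr3a and Htr1b, and Htr1f and Htr5b had library ranges that did not overlap. In WT, Htr2a came first again (11.5 ± 1.26 CPM per kilobase, n = 5), but Htr2c (10.1 ± 4.08) and Htr1b (7.68 ± 3.35) followed it, and Htr4 (1.16 ± 0.412) lay above Htr5b (0.601 ± 0.246). No pair of neighbours in the WT order had separate ranges. In CgA-KO/PS19 the order began Htr2a (7.82 ± 0.870), Htr5a (5.55 ± 2.29), Htr1b (4.06 ± 1.503) and Htr2c (4.06 ± 2.83), and only Htr1f and Htr5b had separate ranges. Htr2a therefore led in each genotype, while Htr5b and Htr4 filled the last places.

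**Figure D1:**
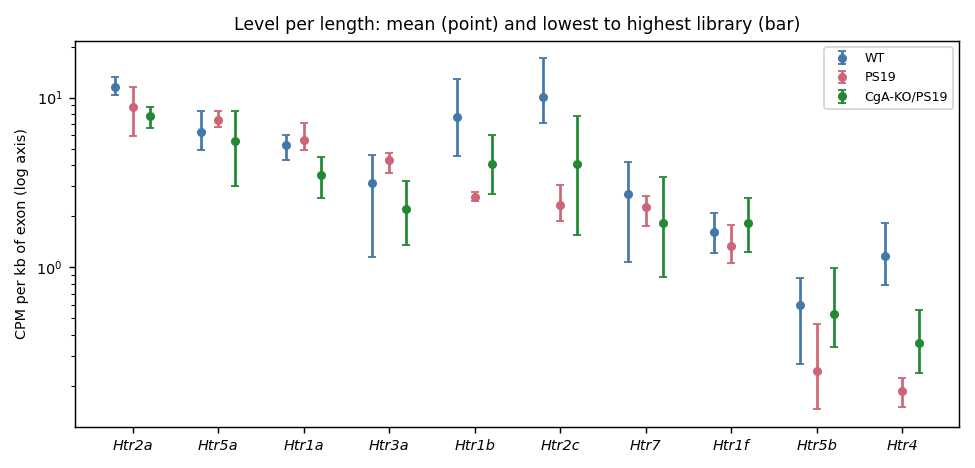
Level of each serotonin receptor gene in CPM per kilobase of exon (log axis), with genes ordered by their mean in PS19. Points are means over 5 WT, 6 PS19 and 6 CgA-KO/PS19 libraries and bars run from the lowest to the highest library. Htr2a is the highest in each genotype, and Htr2c, Htr1b and Htr4 show the widest gap between WT and PS19.

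WT was compared with PS19 to ask which receptors differ with the Tau transgene. Htr4, Htr2c, Htr1b and Htr5b were higher in WT (false discovery rate, FDR, under 0.05 by edgeR over all genes tested). These were 4 of 10 receptor genes, where 5.90% of all genes tested passed in either direction and 3.95% were higher in WT. No receptor gene was called lower in WT by edgeR, DESeq2 or limma voom, and at an unadjusted p under 0.05 the numbers lower were 0, 0 and 2. For 3 of the 4 higher genes every WT library lay above every PS19 library, as it did for 4.39% of all genes. The threshold of the study's Methods (a log2 fold change past 0.5 with an unadjusted p under 0.01) gave the same calls of receptor genes in all 3 comparisons; 7.39% of all genes passed it in WT against PS19, 9.73% in CgA-KO/PS19 against PS19 and 7.75% in CgA-KO/PS19 against WT. The median log2 fold change was 0.32 over the 10 receptor genes and -0.01 over all genes tested. Since the tissue is a bulk sample, fewer cells that express a gene and less of its RNA per cell cannot be told apart.

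**Figure D2:**
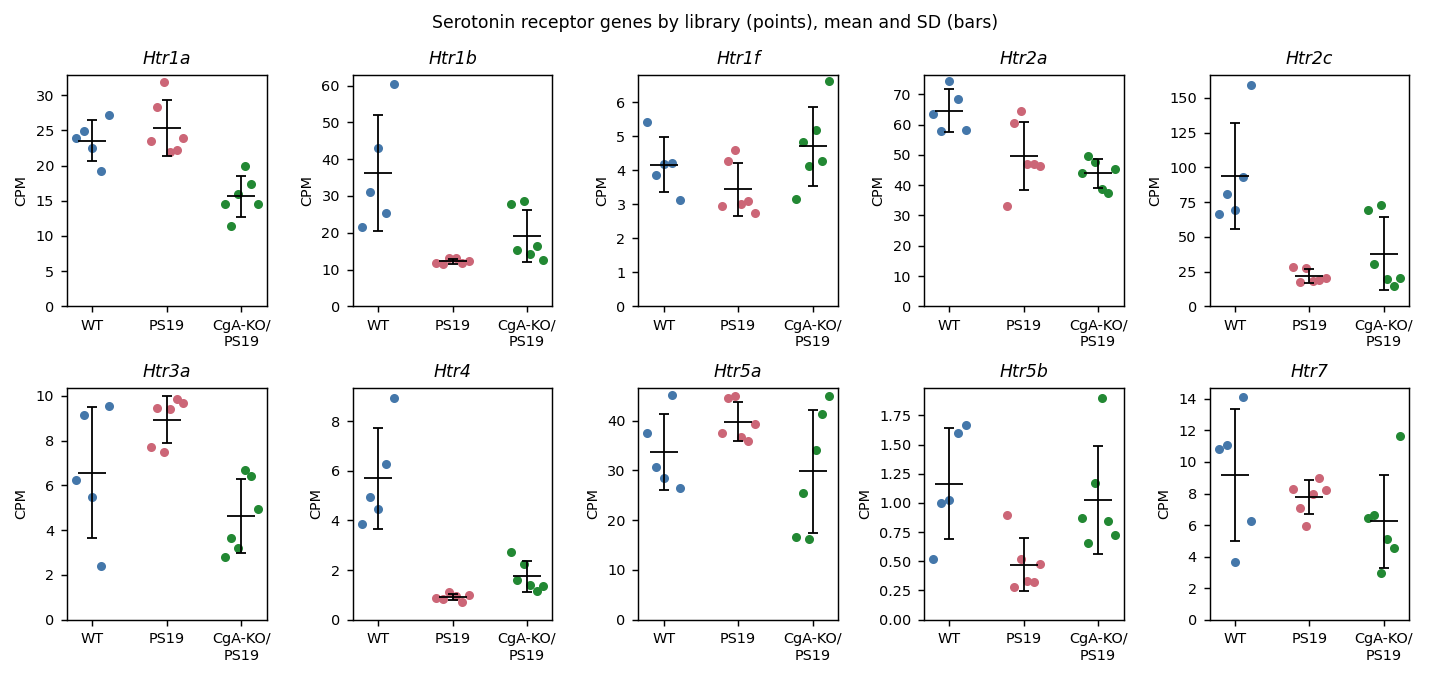
CPM of each of the 10 serotonin receptor genes in every library, by genotype, on axes that start at 0. Points are libraries in the order of their replicate numbers, the bar is the mean and the whiskers are 1 SD. For Htr4, all 5 WT libraries lie above all CgA-KO/PS19 libraries, which lie above all PS19 libraries, and for Htr1a and Htr3a all CgA-KO/PS19 libraries lie below all PS19 libraries.

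Among the receptors coupled to Gs, Htr4, a receptor studied for its part in memory, showed the largest difference of the family. It stood at 3.85, 4.95, 4.45, 6.27 and 8.93 CPM in WT replicates 1 to 5. In PS19 it ranged from 0.732 to 1.097 CPM (median 0.913), and in CgA-KO/PS19 from 1.16 to 2.75 CPM (median 1.49). The genotypes did not overlap in any pair. Htr4 was 6.21-fold higher in WT than in PS19 (log2 fold change 2.63, SE 0.251, FDR = 2.8e-05) and was called in all 23 alternatives, with log2 fold changes of 1.87 to 2.75. Htr7, the other receptor of this group and one known from the control of circadian rhythm, was at 10.8, 11.1, 3.65, 14.1 and 6.29 CPM in WT. Its range was 5.94 to 9.003 CPM in PS19 and 2.97 to 11.6 CPM in CgA-KO/PS19. WT spread on both sides of PS19 and Htr7 was called in no comparison (FDR = 0.741, 0.513 and 0.343 for WT against PS19, CgA-KO/PS19 against PS19 and CgA-KO/PS19 against WT).

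Of the receptors coupled to Gq, Htr2c, an edited receptor that sets neuronal excitability, was at 66.4, 80.7, 69.6, 93.2 and 159 CPM in WT. It ranged from 17.4 to 28.5 CPM in PS19 (median 19.6) and from 14.5 to 72.9 CPM in CgA-KO/PS19 (median 25.3). All WT libraries lay above all PS19 libraries, and 2 CgA-KO/PS19 libraries reached the WT range. Htr2c was 4.30-fold higher in WT than in PS19 (log2 fold change 2.10, SE 0.382, FDR = 0.00316). WT replicate 5, the highest, also had 1023 CPM of Ttr, the main transcript of the choroid plexus, against 3.24 to 9.92 CPM in the other WT libraries. Without that library the log2 fold change of Htr2c was 1.83 (FDR = 0.0132), and without WT replicates 4 and 5 together it was 1.72 (FDR = 0.0410). Htr2a, an excitatory serotonin receptor of cortical pyramidal neurons, was at 63.6, 57.9, 74.4, 68.6 and 58.2 CPM in WT. It ranged from 33.2 to 64.5 CPM in PS19 (median 46.9) and from 37.4 to 49.7 CPM in CgA-KO/PS19 (median 44.7). WT and PS19 overlapped, and the difference did not pass (log2 fold change 0.38, SE 0.140, FDR = 0.127), although limma voom called it (FDR = 0.0354).

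Of the receptors coupled to Gi, Htr1b, a receptor on axon terminals that restrains transmitter release, was at 21.4, 31.1, 43.0, 25.3 and 60.5 CPM in WT. It ranged narrowly in PS19, from 11.6 to 13.1 CPM (median 12.0), and from 12.7 to 28.5 CPM in CgA-KO/PS19 (median 15.8). All WT libraries lay above all PS19 libraries. Htr1b was 2.97-fold higher in WT (log2 fold change 1.57, SE 0.252, FDR = 0.00137). Htr5b, a receptor of mice that has no working copy in humans, was at 0.521, 0.999, 1.03, 1.60 and 1.67 CPM in WT, 0.281 to 0.892 CPM in PS19 (median 0.402) and 0.657 to 1.90 CPM in CgA-KO/PS19 (median 0.861). WT and PS19 overlapped through WT replicate 1 and PS19 replicate 1. Htr5b was called at a log2 fold change of 1.303 (SE 0.364, FDR = 0.0418), on as few as 14 counts in a library. That call was lost in 14 of 23 alternatives, among them the omission of any WT library but replicate 1 and of any PS19 library but replicate 1 (FDR 0.0588 to 0.153).

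The remaining Gi-coupled receptors and the channel subunit did not pass between WT and PS19. Htr1a, the autoreceptor of raphe neurons and an inhibitory receptor of pyramidal neurons, was at 23.9, 24.9, 22.5, 19.3 and 27.2 CPM in WT and at 22.003 to 31.9 CPM in PS19 (median 23.7), with a log2 fold change of -0.10 (SE 0.139, FDR = 0.731). Htr1f, a target of migraine drugs, was at 3.14 to 5.41 CPM in WT and 2.73 to 4.60 CPM in PS19 (FDR = 0.468). Htr5a was at 26.5 to 45.2 CPM in WT and 36.0 to 45.0 CPM in PS19 (FDR = 0.591). Htr3a was at 6.25, 9.13, 5.48, 2.40 and 9.56 CPM in WT and 7.51 to 9.87 CPM in PS19 (FDR = 0.417). For these 4 genes the WT and PS19 ranges overlapped.

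**Figure D3:**
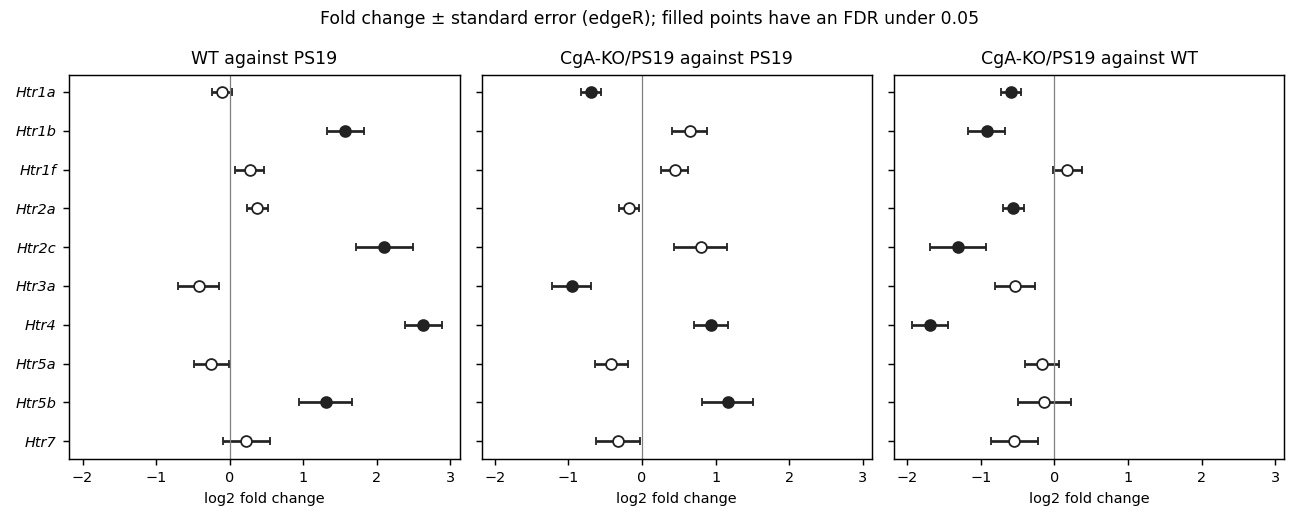
Log2 fold change of the 10 serotonin receptor genes in WT against PS19 (left), CgA-KO/PS19 against PS19 (middle) and CgA-KO/PS19 against WT (right), with the standard error as bars. Filled points have an FDR under 0.05 (edgeR): 4, 4 and 5 genes. PS19, WT and CgA-KO/PS19 libraries each enter a pair of these comparisons, so the panels are not independent.

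Markers of another region were also higher in WT. Of 20 striatum markers 17 were higher in WT than in PS19 and 0 lower, and the summed level was 1427 to 4737 CPM against 441 to 513 CPM. The mean centred log2 level of the list differed by 2.68 (two-sided exact permutation test, p = 0.00216, the smallest these groups can give; adjusted p = 0.00778 over 36 marker tests). Adora2a, a defining marker of striatal projection neurons, was at 17.6 to 146 CPM in WT against 1.28 to 2.10 CPM in PS19, and Isl1 had no count in any PS19 library. For Htr2c and Htr4 the order of the WT libraries followed that of the markers only in part. Replicate 3, with the highest sum (4737 CPM), had Htr2c at 69.6 CPM and Htr4 at 4.45 CPM. Replicate 5, with the next highest (4415 CPM), had the most of both, 159 and 8.93 CPM. Replicate 4, with the lowest sum (1427 CPM), had 93.2 and 6.27 CPM. Htr1b was at 43.0 and 60.5 CPM in replicates 3 and 5 and at 21.4 to 31.1 CPM in the other WT libraries. With this list as a covariate, Htr1b had a log2 fold change of 0.51 (FDR = 0.113) and Htr2c of 0.63 (FDR = 0.174), whereas Htr4 was still called at 1.87 (FDR = 0.00234). Htr5a, which had been at -0.25, was then at 0.78 (FDR = 0.00344), in a fit that called 4056 of all genes. Of 6 markers of the claustrum and lateral cortex 5 were higher in WT, and so were 6 of 10 markers of the choroid plexus. By the same permutation test the score of cortical excitatory neurons was lower in WT (-0.44, adjusted p = 0.0223). Higher in WT were the scores of the thalamus (adjusted p = 0.00778), medial habenula (0.013), upper cortical layers (0.00778) and deep cortical layers (0.0451). The part of these other lists in the results was not tested. The covariate shares its difference between genotypes with the genotypes themselves, so the parts of the 2 in these results cannot be told apart.

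**Figure D4:**
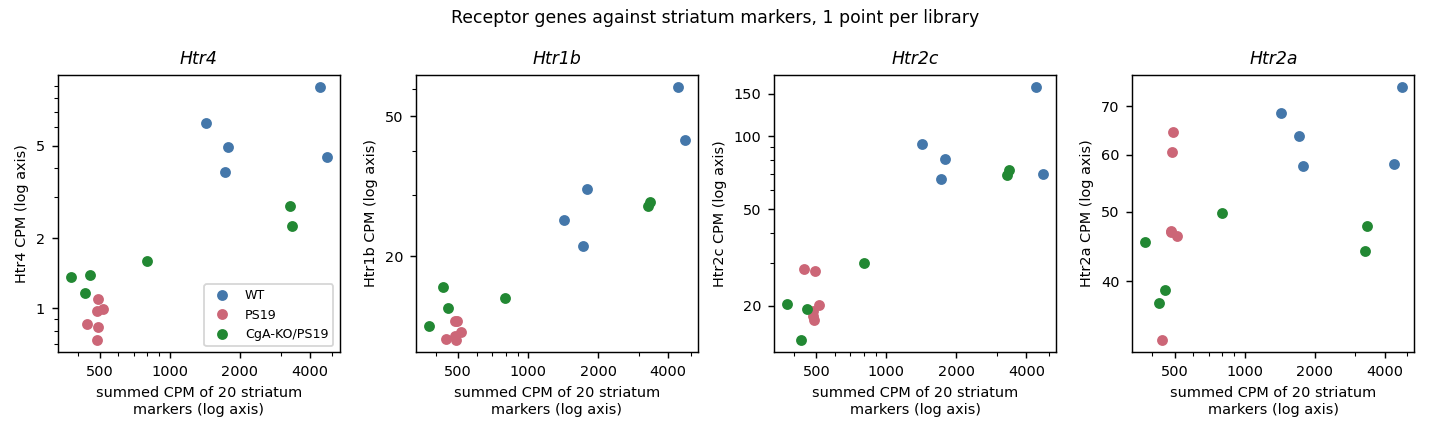
CPM of Htr4, Htr1b, Htr2c and Htr2a (log axes) against the summed CPM of 20 striatum markers (log axis), with 1 point per library. The PS19 libraries sit together at 441 to 513 CPM of markers; CgA-KO/PS19 replicates 1 and 3 sit at 3294 and 3355 CPM, with Htr1b and Htr2c in the WT range but Htr4 and Htr2a below each WT library.

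CgA-KO/PS19 was compared with PS19 to ask which receptors differ with the loss of Chga on the transgenic background. Htr4 and Htr5b were higher in CgA-KO/PS19, and Htr1a and Htr3a were lower. These were 4 of 10 receptor genes, where 9.72% of all genes tested passed, 5.50% as higher and 4.22% as lower. The libraries did not overlap for 1 higher and 2 lower genes, against 2.84% and 3.79% of all genes. The median log2 fold change was 0.13 over the receptor genes and 0.03 over all genes tested. This comparison uses the same PS19 libraries as the one of WT with PS19. Of the 20 striatum markers 12 were called higher in CgA-KO/PS19 and 0 lower, while the score of the list, at 1.20 above PS19, did not pass (two-sided exact permutation test, adjusted p = 0.195). Of 6 markers of the claustrum and lateral cortex 5 were called higher, with a sum of 294 to 432 CPM against 80.4 to 208 CPM. The 8 glia and vessel markers summed to 1997 to 2303 CPM in CgA-KO/PS19 replicates 1 to 3. In replicates 4 to 6 they summed to 1319 to 1410 CPM, and in PS19 to 1113 to 1426 CPM. By the permutation test their score did not pass (0.33, adjusted p = 0.0593). The choroid plexus score was higher (0.18, adjusted p = 0.013) and the medial habenula score lower (-0.17, adjusted p = 0.00778). The part of these lists in the results was not tested.

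Htr1a kept its call most often. It stood at 11.5 to 19.9 CPM in CgA-KO/PS19 (median 15.3) against 22.003 to 31.9 CPM in PS19 (median 23.7), and each CgA-KO/PS19 library lay below each PS19 library. The log2 fold change was -0.69 (SE 0.132, FDR = 0.00603), a level 1.62-fold lower. It was called in 23 of 24 alternatives, the striatum covariate and the averaging of the near-identical libraries included. Htr1a was at 14.5, 11.5, 15.97, 19.9, 17.4 and 14.6 CPM in CgA-KO/PS19 replicates 1 to 6, and it was lowest in replicate 2, which had the highest mitochondrial share (18.2%), and highest in replicate 4, which had the lowest (3.84%). Replicate 4 lay within the mitochondrial range of PS19 and below each PS19 library in Htr1a; the part of this share in the result was not tested. Replicates 4 to 6, whose striatum markers were as low as in PS19, all lay below each PS19 library. With those 3 as the group's only libraries the log2 fold change was -0.56 (FDR = 0.0840), the one alternative in which the call was lost. Hippocampus markers were also lower in CgA-KO/PS19: their sum was 24.7 to 31.0 CPM against 32.0 to 37.5 CPM in PS19. Of the 7 markers 1 was called lower and 0 higher, and the score differed by -0.31 (two-sided exact permutation test, adjusted p = 0.00778). The part of this list in the result was not tested.

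Htr3a was at 2.82, 3.67, 3.20, 6.68, 6.42 and 4.94 CPM in CgA-KO/PS19 replicates 1 to 6 and at 7.51 to 9.87 CPM in PS19 (median 9.44). The groups did not overlap, and replicates 1 to 3 were the lowest. The log2 fold change was -0.95 (SE 0.265, FDR = 0.0325). Markers of interneurons of the caudal ganglionic eminence, the cells that express Htr3a, were lower too: 4 of 12 were called lower and 0 higher, their sum was 534 to 847 CPM against 859 to 1081 CPM, and the score differed by -0.49 (two-sided exact permutation test, adjusted p = 0.00778). The sum was 534 to 560 CPM in CgA-KO/PS19 replicates 1 to 3 and 842 to 847 CPM in replicates 4 to 6; its part in the result was not tested. The call was lost in 11 of 24 alternatives: with the replicate block (FDR = 0.0618), with the striatum covariate (log2 fold change -0.77, FDR = 0.0883), with the near-identical libraries averaged (-0.79, FDR = 0.21), without PS19 replicate 2, 4, 5 or 6 and without CgA-KO/PS19 replicate 1, 2 or 3 (FDR 0.0576 to 0.0779), and without the last 3 together (log2 fold change -0.58, FDR = 0.302).

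Htr4 was at 2.75, 1.59, 2.25, 1.39, 1.16 and 1.36 CPM in CgA-KO/PS19 replicates 1 to 6, against at most 1.097 CPM in PS19. The groups did not overlap, and replicates 1 and 3, with the most striatum markers, were the highest. Htr4 was 1.92-fold higher in CgA-KO/PS19 (log2 fold change 0.94, SE 0.235, FDR = 0.0213). In replicates 4 to 6 alone it was at 1.16 to 1.39 CPM, still above each PS19 library, but the log2 fold change was 0.50 (FDR = 0.285), and without replicate 1 alone it was 0.77 (FDR = 0.0546). The call was also lost with the striatum covariate (0.54, FDR = 0.102), with the near-identical libraries averaged (0.78, FDR = 0.158) and with the replicate block (0.92, FDR = 0.0802). Htr5b was called at a log2 fold change of 1.17 (SE 0.345, FDR = 0.0409) with overlapping libraries, and 15 of 24 alternatives lost the call, the omission of any PS19 library but replicate 1 and of CgA-KO/PS19 replicate 1, 2, 3 or 4 among them (FDR 0.0514 to 0.0934).

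Htr1b and Htr2c, which separated WT from PS19, did not pass between CgA-KO/PS19 and PS19 by edgeR. Htr1b was at 27.9, 15.2, 28.5, 14.3, 16.4 and 12.7 CPM in CgA-KO/PS19 replicates 1 to 6 (log2 fold change 0.65, SE 0.240, FDR = 0.0901), and it was called in 3 of 24 alternatives, by DESeq2 (FDR = 0.0488), by limma voom (FDR = 0.0401) and with only these genotypes in the fit (FDR = 0.0419). Htr2c was at 69.5, 30.2, 72.9, 19.5, 14.5 and 20.4 CPM (log2 fold change 0.80, SE 0.359, FDR = 0.158). For both genes replicates 1 and 3 stood far above the others, and these were the libraries in which the striatum markers were at 3294 and 3355 CPM. The same libraries also had 2276 and 2303 CPM of glia and vessel markers and mitochondrial shares of 15.3% and 13.8%. The part of each of these in the levels of Htr1b and Htr2c was not tested. Without replicates 1 to 3 the log2 fold change of Htr1b was 0.23 (FDR = 0.641) and that of Htr2c turned to -0.28 (FDR = 0.588). Htr5a ran the other way, at 16.6, 25.5, 16.2, 34.2, 41.3 and 45.0 CPM (FDR = 0.232, and 0.0182 by limma voom), with replicates 1 to 3 below each PS19 library and a log2 fold change of 0.00 without them (FDR = 0.998).

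Htr2a was at 37.4 to 49.7 CPM in CgA-KO/PS19 and 33.2 to 64.5 CPM in PS19 (log2 fold change -0.18, SE 0.134, FDR = 0.396). It was at 44.1 to 49.7 CPM in CgA-KO/PS19 replicates 1 to 3 and at 37.4 to 45.3 CPM in replicates 4 to 6. Htr1f was at 3.16 to 6.61 CPM against 2.73 to 4.60 CPM (log2 fold change 0.44, SE 0.186, FDR = 0.131). Without CgA-KO/PS19 replicates 1 to 3, edgeR called 0 receptor genes and 1.46% of all genes tested; 3 receptor genes had an unadjusted p under 0.05 (Htr1a, Htr1f and Htr5b). In the 3 libraries that remained, Htr1a and Htr3a still lay below, and Htr4 above, each PS19 library.

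**Figure D5:**
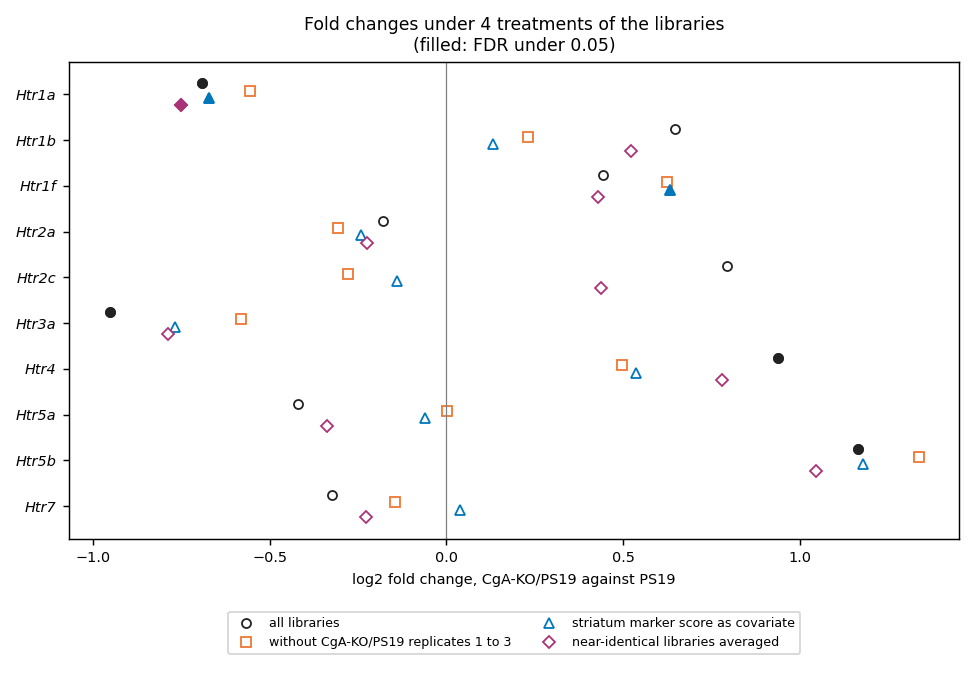
Log2 fold change of the 10 serotonin receptor genes in CgA-KO/PS19 against PS19 with all libraries, without CgA-KO/PS19 replicates 1 to 3, with the striatum marker score as a covariate, and with the near-identical libraries of a genotype replaced by their mean. Filled symbols have an FDR under 0.05 (edgeR). Htr1a stays between -0.75 and -0.56, while Htr2c turns from 0.80 to below 0 in 2 of the settings.

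CgA-KO/PS19 was last compared with WT. Htr4, Htr2c, Htr1b, Htr1a and Htr2a were lower in CgA-KO/PS19 than in WT, 5 of 10 receptor genes, where 6.46% of all genes tested passed and 2.89% were lower. None was higher by edgeR, DESeq2 or limma voom, and none was higher at an unadjusted p under 0.05 by any of them (0 each). Of the 20 striatum markers 1 was called lower in CgA-KO/PS19 and 0 higher. The score of the list, at -1.48 against WT, did not pass (two-sided exact permutation test, adjusted p = 0.138). The striatum sum was 373 to 798 CPM in CgA-KO/PS19 replicates 2 and 4 to 6, below each WT library (1427 to 4737 CPM). It was 3294 and 3355 CPM in replicates 1 and 3, within the WT range. Lower too were 4 of 10 choroid plexus markers, 5 of 12 interneuron markers and 2 of 7 hippocampus markers. The part of these other lists was not tested. With the striatum covariate Htr1b lost its call (log2 fold change -0.37, FDR = 0.130), while Htr5a (-0.84, FDR = 0.000267) and Htr7 (-0.96, FDR = 0.0348) were called lower in CgA-KO/PS19, in a fit that called 4971 of all genes. The median log2 fold change was -0.55 over the receptor genes and 0.01 over all genes tested. Htr4 (log2 fold change -1.69, SE 0.246, FDR = 0.000901) and Htr2a (-0.56, SE 0.140, FDR = 0.0243) had libraries that did not overlap, as 1.54% of all genes did in this direction. Htr4 was called in all 23 alternatives. Htr2a was called in 21 and lost the call without WT replicate 3 (-0.50, FDR = 0.0639) and with the near-identical libraries averaged (-0.56, FDR = 0.0751). It was called at -0.67 without CgA-KO/PS19 replicates 1 to 3 (FDR = 0.0476).

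Htr1a was 1.51-fold lower than in WT (log2 fold change -0.59, SE 0.138, FDR = 0.0170), with 1 pair of libraries that overlapped, CgA-KO/PS19 replicate 4 at 19.9 CPM and WT replicate 4 at 19.3 CPM. It lost the call in 5 of 23 alternatives: without WT replicate 5 (-0.53, FDR = 0.0578), with only these genotypes in the fit (FDR = 0.0588), with the near-identical libraries averaged (FDR = 0.0566), with the replicate block (FDR = 0.0774) and without CgA-KO/PS19 replicates 1 to 3 (-0.45, FDR = 0.129). Htr1b (-0.92, SE 0.250, FDR = 0.0345) and Htr2c (-1.31, SE 0.375, FDR = 0.0448) overlapped with WT through CgA-KO/PS19 replicates 1 and 3. In CgA-KO/PS19 replicates 4 to 6 alone, Htr1b was at 12.7 to 16.4 CPM and Htr2c at 14.5 to 20.4 CPM, and the log2 fold changes against WT were -1.33 (FDR = 0.0120) and -2.37 (FDR = 0.000472). With all libraries the calls were lost without WT replicate 3 or 5, or without CgA-KO/PS19 replicate 2, 4, 5 or 6, and for Htr2c also without WT replicate 2 or 4 (FDR 0.0522 to 0.156 over both genes). Both calls were also lost with only these genotypes in the fit (FDR = 0.142 and 0.151) and with the replicate block (FDR = 0.0927 and 0.0757), and that of Htr2c with DESeq2 size factors (FDR = 0.0531) and with a stricter filter of 10 counts per library (FDR = 0.0543).

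The other genes of serotonin signalling were counted by list. Beside these counts stand the shares of all genes tested that were called in either direction. They were 5.90% in WT against PS19, 9.72% in CgA-KO/PS19 against PS19 and 6.46% in CgA-KO/PS19 against WT. Of the receptor genes outside these 10, Htr1d, Htr2b and Htr6 were tested and 0 were called in any comparison by edgeR, and Htr3b, the partner subunit of Htr3a, had 0 counts in all 17 libraries. Htr6, a receptor coupled to Gs, was at 4.68 ± 0.516 CPM in PS19 (n = 6) and 3.19 ± 0.840 CPM in CgA-KO/PS19 (n = 6), with an FDR of 0.0627 and an unadjusted p of 0.00754. Of 16 tested genes of serotonin synthesis, packaging, uptake and breakdown, 2 rose and 1 fell in WT relative to PS19. The higher genes were the low-affinity uptake transporters Slc29a4 (10.4 ± 8.15 against 2.80 ± 0.295 CPM, FDR = 0.0185) and Slc22a3 (3.77 ± 2.04 against 1.27 ± 0.274 CPM, FDR = 0.0284). The lower one was Tph2, the neuronal enzyme that starts serotonin synthesis, at 0.623 ± 0.0995 against 1.12 ± 0.131 CPM (FDR = 0.0469). This is a low level: WT replicate 4 had 0.684 CPM of Tph2 in a library of 8838334 counts. No alternatives are given for this gene. Of these 16 genes 0 were called by edgeR between CgA-KO/PS19 and PS19. Maoa, the main enzyme of serotonin breakdown, was at 34.1 ± 1.64, 34.9 ± 3.62 and 35.0 ± 2.96 CPM in WT, PS19 and CgA-KO/PS19.

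Of 14 genes of receptor partners, trafficking and RNA editing, 1 was higher in each comparison with PS19. Of all genes tested, 3.95% were higher in WT and 5.50% in CgA-KO/PS19 against PS19. In WT it was Tmem35a, a chaperone of ligand-gated channels, at 63.6 ± 11.5 against 44.0 ± 3.96 CPM (FDR = 0.0147). In CgA-KO/PS19 it was S100a10 (p11), which brings Htr1b and Htr4 to the cell surface, at 19.4 ± 5.54 against 10.4 ± 0.619 CPM (log2 fold change 0.90, SE 0.164, FDR = 0.00475), with all CgA-KO/PS19 libraries (12.2 to 24.5 CPM) above all PS19 libraries (9.38 to 11.1 CPM). Of 17 genes of G proteins and second messengers, 1 rose and 2 fell in WT relative to PS19: Gnal, the Gs-type subunit of the striatum, was at 443 ± 100 against 214 ± 15.6 CPM (FDR = 0.00926), and the adenylyl cyclases Adcy1 (670 ± 199 against 1359 ± 77.1 CPM, FDR = 0.00137) and Adcy2 (155 ± 24.1 against 212 ± 16.7 CPM, FDR = 0.0293) were lower. In CgA-KO/PS19, Adcy2 (165 ± 22.6 CPM, FDR = 0.0479) and Adcy9 (61.6 ± 17.3 against 89.6 ± 13.9 CPM, FDR = 0.0393) were lower than in PS19. Against WT, Tph2, Adcy1 and Rapgef4, a cyclic AMP sensor, were higher in CgA-KO/PS19 (FDR = 0.0127, 0.00904 and 0.00904).

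For each called receptor gene, the genes most alike across the 17 libraries were found from log2(CPM + 1) centred on the genotype means, among 15474 genes with a mean of at least 1 CPM. The libraries share depth and tissue makeup, so these values describe the libraries alone. Nearest to Htr1b were Hcn4 (Pearson r = 0.946), Ptpro (0.945) and Gm37264 (0.935), and nearest to Htr2c were Abca8a (0.952), Myo5b (0.918) and Prkcq (0.917). Htr4 was nearest to Gpr101 (0.916), Nsun7 (0.905) and Spink10 (0.893). Htr1a was nearest to Prkce (0.904), Rrp12 (0.868) and 1500011B03Rik (0.858). Htr3a was nearest to Abhd6 (0.954), Bcap31 (0.936) and Kit (0.932), Htr2a to Tet1 (0.878), Apcdd1 (0.861) and Slco1a4 (0.843), and Htr5b to Ascc1 (0.853), Scml4 (0.784) and Tpst1 (0.739). No gene was shared between these lists of 3.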

How the data were processed

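Bulk mRNA of prefrontal cortex was sequenced with paired ends in 5 WT, 6 PS19 and 6 CgA-KO/PS19 libraries. The authors deposited whole-number counts per gene without normalization. Per the submitters' processing notes and Methods, reads were trimmed with Trimmomatic 0.39, aligned to mm10 with STAR 2.7.10b and quantified with StringTie 1.3.6, whose coverage prepDE turned into counts. Low counts peaked at 3 in most libraries, and at 1 in PS19 replicates 2, 3 and 5 and CgA-KO/PS19 replicate 3. A fragment was therefore taken to count about 3 times, so that low genes look more precise than they are. The annotation release and the use of strand are not given in the sources used here, so overlapping genes and near-identical copies are uncertain. The column of each library was matched by name.

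The deposited counts were analysed with edgeR 4.0.16 in R 4.3.3: filterByExpr by genotype, TMM, and a quasi-likelihood fit to all 17 libraries with 1 mean per genotype, as the Methods state no covariate. Benjamini-Hochberg adjustment ran over the 23062 genes tested, and a gene was called at an FDR under 0.05. The Methods' own threshold was a second rule. CPM used the TMM library sizes. The common biological coefficient of variation was 0.316. Totals were 8838334 to 227651681 counts. Exon lengths came from GENCODE M21 (GRCm38) and promoter windows from RefSeq GRCm38.p6. Marker lists were scored per library as the mean centred log2(CPM + 1) and tested between genotypes by exact permutation, two-sided, adjusted over 36 tests.

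All receptor genes were named, with those genes of 4 pathway lists called in a comparison with PS19, at most 4 per list. Htr6, Maoa and Rapgef4 were named after their values were seen. The receptor genes, the lists and the rules were chosen with earlier results of these data known. Alternatives were DESeq2 1.42.0, its size factors in edgeR, 2 other filters, only the 2 genotypes compared, a robust fit, voom in limma 3.58.1 with quality weights, a block for the replicate number, the striatum score or Ddx3y as a covariate (sex is not given beside the libraries), averaging near-identical libraries, and each library left out. Leaving out CgA-KO/PS19 replicates 1 to 3 together, or WT replicates 4 and 5 together, was chosen after seeing the data. The first of these choices also removed each CgA-KO/PS19 library with a high level of Ddx3y. The tests were also run on simulated counts, drawn independently for each library with planted changes. That simulation held no near-identical libraries, no repeated counting of fragments and no mixture of tissues. It cannot check the tests for these features of the data.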

Additional observations from a re-analysis of the deposited data

Results flagged for a closer look

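In 66 sets of libraries of 1 genotype (10 receptor genes and 12 marker lists in 3 genotypes), 4 had a highest or lowest library far from the others by Dixon's criterion, where chance gives about 1 in 20. WT replicate 5 held 159 CPM of Htr2c, against 93.2 CPM in the next WT library. The same library had a summed level of 1450 CPM of the 10 choroid plexus markers, against 204 CPM in the next; Htr2c is known from the choroid plexus, and the part of this tissue in its level was not tested. PS19 replicate 1 had 37.5 CPM of the 7 hippocampus markers, against 33.3 CPM in the next library. PS19 replicate 5 had 1.55 CPM of the 6 markers of serotonergic neurons, against 5.41 CPM in the next lowest. No other set of receptor gene values stood out in this way.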

How the results depend on the processing

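The counts of receptor genes called were 4, 4 and 5 in WT against PS19, CgA-KO/PS19 against PS19 and CgA-KO/PS19 against WT. With the striatum marker score as a covariate WT against PS19 had 2 (Htr4 kept, Htr5a gained) and CgA-KO/PS19 against PS19 had 2 (Htr1a kept, Htr1f gained), and CgA-KO/PS19 against WT had 6 (Htr1b lost, Htr5a and Htr7 gained). Averaging the near-identical libraries, which left 430, 156 and 577 calls over all genes, gave 1 (Htr1a) and 3 in the comparisons of CgA-KO/PS19 with PS19 and with WT, only the 2 genotypes in the fit gave 2 in that with WT, and leaving out CgA-KO/PS19 replicates 1 to 3 gave 0 against PS19, where 3 had an unadjusted p under 0.05 in edgeR. Leaving out each library in turn gave 3 to 4, 1 to 4 (1 without CgA-KO/PS19 replicate 1, 2 without its replicate 2 or 3 or PS19 replicate 2, 4, 5 or 6) and 2 to 5 (2 without WT replicate 3 or 5, 3 without CgA-KO/PS19 replicate 2, 4, 5 or 6). Other scalings shifted the median of all genes by under 0.1. Apart from leaving out single libraries, 11 of 360 fold changes of receptor genes turned direction, and none of these had been called in the reported tests. With limma voom, Htr1a was at 0.0098 and Htr7 at -0.24 in WT against PS19. With the striatum covariate, Htr3a was at 0.15 and Htr5a at 0.78 in WT against PS19, Htr2c at -0.14 and Htr7 at 0.039 in CgA-KO/PS19 against PS19, and Htr1f at -0.10 in CgA-KO/PS19 against WT. Without CgA-KO/PS19 replicates 1 to 3, Htr2c was at -0.28 and Htr5a at 0.0013 against PS19, and Htr5a at 0.26 and Htr5b at 0.044 against WT. Without WT replicate 5, Htr5b was at 0.066 in CgA-KO/PS19 against WT, where leaving out single libraries gave -0.40 to 0.066. The score of caudal ganglionic eminence interneurons in WT against PS19 (0.0014) was -0.053 to 0.056 without single libraries, below 0 without WT replicate 2 or 3 or PS19 replicate 1, 2 or 3. The causes were not tested.

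With the replicate number as a block, 3, 1 and 2 genes were called; Htr1a was the one kept in CgA-KO/PS19 against PS19. Whether the numbers pair the samples cannot be told from these values. Same-numbered libraries deviated together with correlations from -0.23 to 0.44, not all above 0.1. Replicates 1 to 3 had the higher level of Ddx3y in every genotype. Depth limits Htr5b, Htr3a and Htr1f most, at 14, 21 and 37 counts in the lowest library.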
